A study of Homo sapiens with 9 samples.

Results

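The genes described are 9 components of the spectrin-actin membrane skeleton: the adducins ADD1, ADD2 and ADD3, the spectrins SPTAN1, SPTBN1 and SPTB, the linker proteins EPB41 and EPB41L2, and the actin-bundling protein DMTN. They are 9 of the 60609 gene identifiers in the count tables. The list was chosen by the measured level of 1 of its members, ADD2, which had been seen higher in clone A1 alone. The level of ADD2 by group is therefore given as a description with no test, and the other 8 genes were listed by the proteins they encode. All 9 genes passed the filter on low counts and were among the 21682 genes tested.

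RNA was sequenced after removal of ribosomal RNA from U2-OS, an established human osteosarcoma cell line, in 9 libraries. Clone A1 and clone A4 overexpress NCBP2, a cap-binding protein of the nucleus, and gave 3 libraries each. The vector group is 3 libraries of 3 different clones made with the empty vector, 1 library each. All cells were grown in the same medium with serum, and the promoter that drives the transgene is not given in the sources used here. Because clone A1 is a single clone, a difference seen in it alone and a difference due to NCBP2 cannot be told apart, and whether the 3 libraries of a clone came from separate cultures is not stated. P-values therefore measure the spread between these libraries, which may be technical in part.

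Counts in genes were 29234022 to 50554080 per library. NCBP2 was at 299 to 348 CPM (counts relative to the library total) in clone A1, 456 to 1035 CPM in clone A4 and 90.6 to 98.4 CPM in the vector libraries, so every NCBP2 library lay above every vector library. Clone A1 replicate A stood apart: its correlation of log2 CPM with the other libraries was 0.899 to 0.928, and 21823 genes had a count in it against 25390 to 29787 in the others. Values that leaving it out moved are also given without it. Of the 7 osteoblast and mesenchymal markers looked at, COL1A1, RUNX2, VIM, SPARC and FN1 were abundant, whereas COL1A2 reached at most 1.15 CPM and ALPL at most 4.12 CPM in any library.

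The membrane skeleton is a meshwork under the plasma membrane in which spectrin tetramers, made of alpha and beta chains, are joined at short actin filaments. Adducins cap the fast-growing end of actin filaments and recruit spectrin to them. They work as complexes of the alpha subunit, encoded by ADD1, with either the beta subunit, encoded by ADD2, or the gamma subunit, encoded by ADD3. ADD1 and ADD3 are expressed in most tissues, while ADD2 is best known from red blood cells and brain.

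The promoters of ADD2 and ADD1 are shown because ADD2 is the adducin whose level differed by clone and ADD1 encodes the partner it pairs with. Both sequences are the 250 bases before the first RefSeq start of the gene on GRCh38.p14, printed on the strand of the gene from 5′ to 3′. The ADD2 window is chr2:70768201-70768450 on the minus strand, and its last 25 bases lie inside the ADD2 gene of GENCODE release 44. The ADD1 window is chr4:2843594-2843843 on the plus strand. Capitals mark each match to the GC box GGGCGG on either strand.
ADD2: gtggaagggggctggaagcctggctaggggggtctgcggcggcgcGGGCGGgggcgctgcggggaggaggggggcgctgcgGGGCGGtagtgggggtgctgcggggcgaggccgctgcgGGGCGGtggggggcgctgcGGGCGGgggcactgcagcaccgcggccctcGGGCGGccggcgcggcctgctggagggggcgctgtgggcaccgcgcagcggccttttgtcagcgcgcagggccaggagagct
ADD1: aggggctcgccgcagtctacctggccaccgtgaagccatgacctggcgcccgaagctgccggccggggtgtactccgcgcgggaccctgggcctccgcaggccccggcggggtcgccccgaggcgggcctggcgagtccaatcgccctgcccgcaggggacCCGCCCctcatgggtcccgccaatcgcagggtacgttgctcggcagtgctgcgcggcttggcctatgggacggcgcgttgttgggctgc

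The ADD2 window was 81.2% G or C with 31 CpG dinucleotides, and 89.1% of the 35114 promoter windows in the RefSeq table had fewer. It held 5 GC boxes, a number that 4.15% of promoters reached or exceeded, while 42.6% had at least 1. Among the other listed genes, 1 window each of SPTAN1, EPB41L2 and ADD3 also held 5, and 1 of SPTBN1 held 7. The ADD1 window was 74.4% G or C, with 29 CpG dinucleotides and 1 GC box. The median promoter was 58.0% G or C with 11 CpG dinucleotides.

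The letters AGATAA, which erythroid transcription factors can bind, were absent from the ADD2 window on both strands, and 9.17% of promoters held them. The letters TATAAA were absent too, against 10.7% of promoters. CACCC was found 1 time in ADD2, against 54.7% of promoters with at least 1. A run of 8 bases, GCTGCGGG, occurred 5 times in the ADD2 window and 0 times in that of ADD1. Only 3 of the 35114 windows, ADD2 included, held it at least 5 times on either strand, and 3.75% held it at all. This run was picked after the sequence had been read, and some of its copies overlap GC boxes. The second RefSeq start of ADD2 had a window of 68.8% G or C with 1 GC box. These matches describe letters and were not tied to binding or to the RNA levels.

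ADD2 (ENSG00000075340.23) lies at chr2:70607618-70768225 on the minus strand in GENCODE release 44. The 3 clone A1 libraries, in the order A, B, C, held it at 22.0, 41.5 and 40.0 CPM, from 626, 1543 and 1703 counts. In clone A4 the values were 1.24, 3.66 and 2.22 CPM, from 59, 161 and 99 counts. In the vector libraries they were 1.97, 4.49 and 4.29 CPM, from 91, 230 and 176 counts. All 3 clone A1 libraries were above all 6 others, and the clone A4 and vector libraries overlapped.

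Over 3 libraries each, the mean and SD of ADD2 were 34.5 ± 10.8 CPM for clone A1, 2.37 ± 1.22 CPM for clone A4 and 3.58 ± 1.40 CPM for vector. By these means clone A1 was 9.63-fold above vector and 14.6-fold above clone A4. The lowest clone A1 library, replicate A, was 4.91-fold above the highest library of the other groups. Without that replicate the clone A1 mean was 40.8 ± 1.02 CPM (SD, n = 2), 11.4-fold above vector and 17.2-fold above clone A4. In the order of the groups, clone A1, vector and clone A4, the libraries of the last 2 overlap.

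edgeR's log2 fold change of ADD2 was 3.27 (SE 0.443) in clone A1 against vector, -0.60 (SE 0.421) in clone A4 against vector and -3.86 (SE 0.457) in clone A4 against clone A1. With both clones as 1 arm of 6 libraries against vector it was 2.36 (SE 1.01), a mean over 3 high and 3 low libraries. In clone A1 against vector, 63 of the 21682 genes had a higher log2 fold change than ADD2, and 5 of the 13505 genes with an average log2 CPM of at least 1. These contrasts include the one that chose the list, so the fold changes and ranks of ADD2 are a description, given without p-values. The NCBP2 level was highest in clone A4, where ADD2 was not high, and a relation of ADD2 to the NCBP2 level was not tested. In RNA from many cells, a larger share of cells with ADD2 and more ADD2 RNA per cell cannot be told apart.

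**Figure D1:**
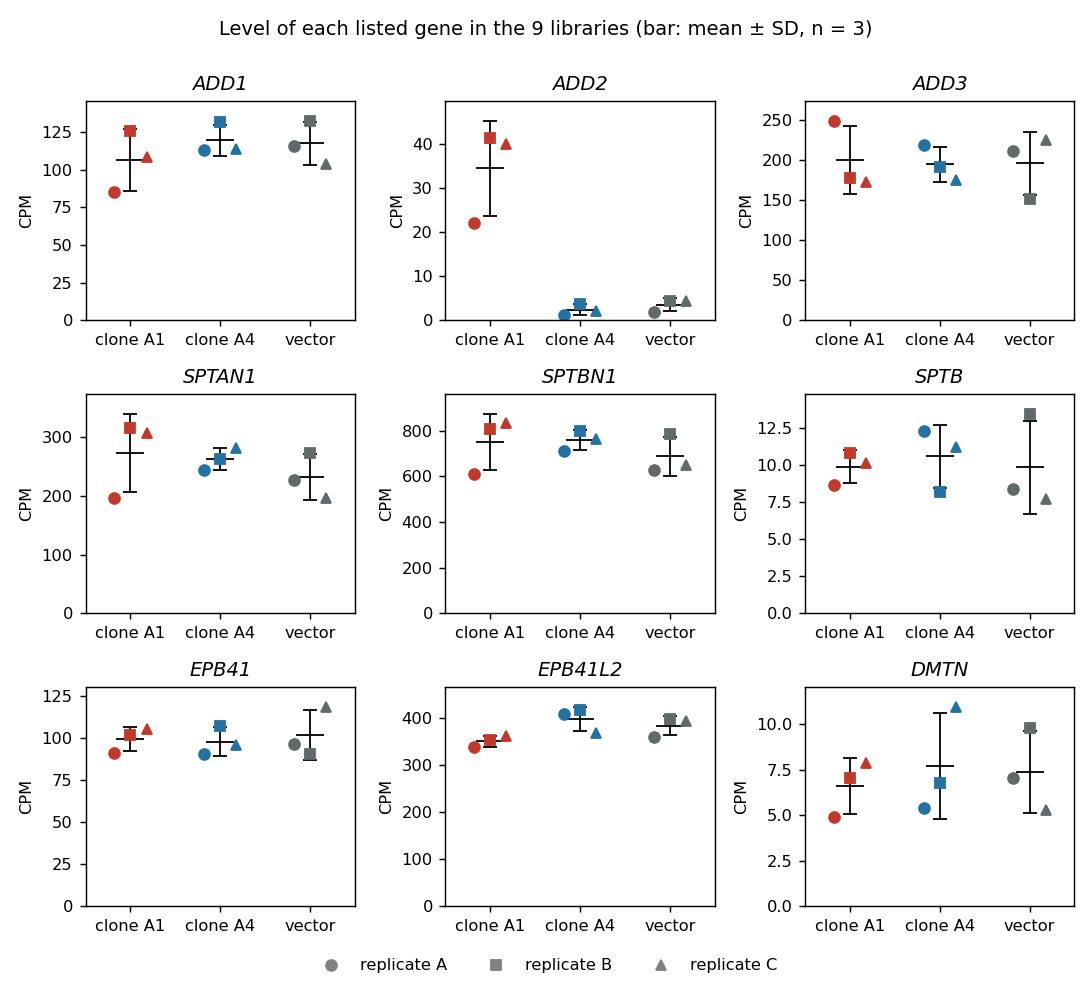
CPM of each of the 9 genes (vertical axis, starting at 0) in each library, by group, with the mean and SD of 3 libraries as bars. ADD2 is the gene whose clone A1 libraries, at 22.0 to 41.5 CPM, sit apart from the rest, at 1.24 to 4.49 CPM, while the groups of the other panels lie close together.

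Reads on the strand opposite to ADD2 were 0 to 19 per library, at most 9.17% of the stranded counts of the gene. Its exons share 235 bases with an antisense gene that had 0 counts in every library. Counting without regard to strand gave a log2 fold change of 3.24 in clone A1 against vector.

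The partner adducin ADD1 (chr4:2843844-2930076, plus strand) was at 85.0, 126 and 108 CPM in the A, B and C libraries of clone A1, at 113, 132 and 114 CPM in those of clone A4, and at 116, 133 and 104 CPM in those of the vector group. ADD3 (chr10:109996368-110135565, plus strand), the alternative partner of ADD1, was at 249.6, 178 and 174 CPM in the A, B and C libraries of clone A1, at 219, 192 and 175 CPM in those of clone A4, and at 212, 151 and 226 CPM in those of the vector group. For both genes the 3 groups overlapped. Against vector, ADD1 had a clone A1 log2 fold change of -0.14 (SE 0.180) and ADD3 one of 0.03 (SE 0.199), with edgeR adjusted p-values of 0.884 and 0.986. Without clone A1 replicate A these log2 values were 0.00 and -0.15, each with an adjusted p of 1.0 by edgeR. In clone A4 against vector the log2 fold change was 0.02 (SE 0.179) for ADD1 and -0.01 (SE 0.199) for ADD3, both with an adjusted p of 1.0.

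Scaled by the length of the merged exons, ADD3 made up most of the adducin RNA in every library. ADD2 was 3.75%, 8.19% and 8.34% of the adducin CPM per kilobase in clone A1 replicates A, B and C, a mean of 6.76% ± 2.61 (SD, n = 3) that was 8.27% ± 0.109 (SD, n = 2) without replicate A. It was 0.232% to 0.729% in clone A4 and 0.376% to 1.06% in the vector libraries, with means of 0.484% ± 0.249 and 0.742% ± 0.343. ADD1 held 19.7% ± 5.20 in clone A1, 23.2% ± 2.54 in clone A4 and 23.2% ± 5.98 in vector. The summed adducin level was 41.4 ± 4.40, 39.1 ± 3.31 and 39.2 ± 4.95 CPM per kilobase in clone A1, clone A4 and vector, which overlapped.

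**Figure D2:**
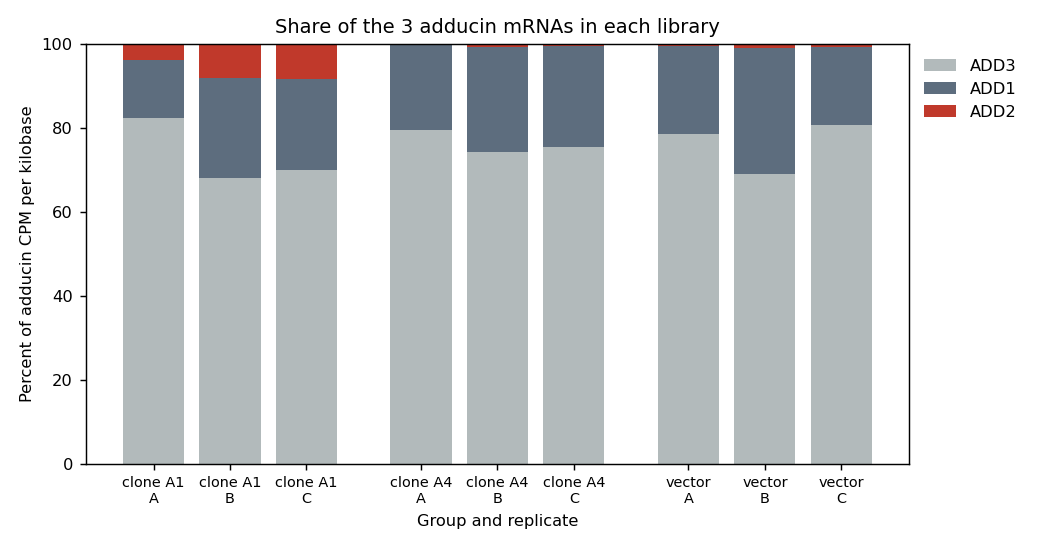
Share of ADD3, ADD1 and ADD2 in the adducin CPM per kilobase of merged exons (percent, vertical axis), 1 bar per library. ADD2 reaches 3.75% to 8.34% in the clone A1 libraries and at most 1.06% in the others.

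Spectrin of most non-erythroid cells pairs the alpha chain of SPTAN1 with the beta chain of SPTBN1, and SPTB encodes the beta chain of red cell spectrin. SPTAN1 (chr9:128552558-128633662, plus strand) was at 197, 316 and 308 CPM in the A, B and C libraries of clone A1, at 245, 262.5 and 283 CPM in those of clone A4, and at 227, 274 and 197 CPM in those of the vector group. SPTBN1 (chr2:54456317-54671446, plus strand) was at 612, 810.0 and 836 CPM in the A, B and C libraries of clone A1, at 714, 799 and 765 CPM in those of clone A4, and at 630.4, 788 and 650.0 CPM in those of the vector group. Replicate A of clone A1 was the lowest of its clone for both genes, and no 2 groups were separated. The clone A1 log2 fold change against vector was 0.23 for SPTAN1 (SE 0.198, adjusted p = 0.830), the highest of the 8 genes in that contrast, and 0.13 for SPTBN1 (SE 0.160, adjusted p = 0.887). Without replicate A of clone A1, edgeR gave 0.43 for SPTAN1 (SE 0.174, adjusted p = 0.713) and 0.26 for SPTBN1 (SE 0.153, adjusted p = 0.959).

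SPTB (chr14:64746283-64879907, minus strand) was at 8.66 to 10.8 CPM in clone A1, 8.17 to 12.3 CPM in clone A4 and 7.69 to 13.4 CPM in vector. Its clone A1 log2 fold change was 0.01 (SE 0.281, adjusted p = 0.999). Reads on the strand opposite to SPTB were 47.2% to 66.2% of its stranded counts, and 3408 of its exon bases are shared with PLEKHG3 on that strand. Counting without regard to strand gave somewhat higher counts, such as 722 against 688 in vector replicate B and 606 against 501 in clone A4 replicate C. The clone A1 log2 fold change against vector was then 0.04.

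EPB41 and EPB41L2 encode proteins that tie spectrin and actin to membrane proteins. EPB41 (chr1:28887091-29120046, plus strand) was at 91.2 to 105 CPM in clone A1, 90.3 to 107 CPM in clone A4 and 90.2 to 118 CPM in vector. EPB41L2 (chr6:130839347-131063322, minus strand) was at 337, 353 and 361 CPM in the A, B and C libraries of clone A1, at 408, 418 and 369 CPM in those of clone A4, and at 360.1, 397 and 393 CPM in those of the vector group. For EPB41L2 every clone A4 library was above every clone A1 library, and the fold change was 0.18 on the log2 scale (SE 0.134, adjusted p = 0.831 by edgeR). That made 1 of the 8 genes without overlap in clone A4 against clone A1, beside 13.6% of all genes tested.

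DMTN encodes dematin, which bundles actin filaments at the junctions of the red cell skeleton. The gene lies on chromosome 8 and was at 4.93, 7.07 and 7.88 CPM in the A, B and C libraries of clone A1, at 5.39, 6.76 and 11.0 CPM in those of clone A4, and at 7.06, 9.80 and 5.32 CPM in those of the vector group. The groups overlapped, and its interval was the widest of the 8. The 95% interval of its fold change was 0.534 to 1.51 in clone A1 against vector and 0.621 to 1.75 in clone A4 against vector.

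The threshold was an edgeR p under 0.05 after Benjamini-Hochberg adjustment over all genes tested. Of the 8 genes other than ADD2, 0 passed it in clone A1 against vector, beside 0.0646% of all genes tested (14 genes). In clone A4 against vector 0 of 8 passed, beside 0.115%, in clone A4 against clone A1 0 of 8, beside 0.161%, and in the joint NCBP2 arm against vector 0 of 8, beside 0.0184%. edgeR also gave 0 of the 8 at an unadjusted p under 0.05 in each contrast, where the share of all genes was 7.51%, 5.25%, 6.63% and 5.71% in the same order, and DESeq2 called 0. Without clone A1 replicate A, 1 of the 8 had such a p in clone A1 against vector, beside 1403 of the 22976 genes then tested. With so few genes called in all, a count of 0 among 8 is near the background. The lowest adjusted p was 0.830, 1.0, 0.831 and 0.999 in these 4 contrasts.

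The log2 fold changes of these 8 genes ranged from -0.16 to 0.23 in clone A1 against vector, with a median of -0.01 beside -0.02 over all genes. In clone A4 against vector they ranged from -0.06 to 0.18, with a median of 0.06 beside 0.03. Over the 8 genes, the 95% intervals of the fold changes reached from 0.534 to 1.58 in clone A1 against vector and from 0.621 to 1.75 in clone A4 against vector. They were narrower for other genes, such as 0.747 to 1.12 for EPB41L2 and 0.857 to 1.39 for SPTBN1 in clone A1 against vector. None of the 8 had groups without overlap in clone A1 against vector (14.2% of all genes), in clone A4 against vector (12.1%) or in the NCBP2 arm against vector (3.74%). Without clone A1 replicate A, SPTAN1 and SPTBN1 did not overlap in clone A1 against vector. Their other clone A1 libraries were at 308 to 316 CPM and 810 to 836 CPM, against at most 274 CPM and 788 CPM in vector. The share of all genes without that replicate was not computed, and the 14.2% above is for all libraries of both groups. Fewer libraries are separated more easily, so no result about these genes is drawn from it.

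**Figure D3:**
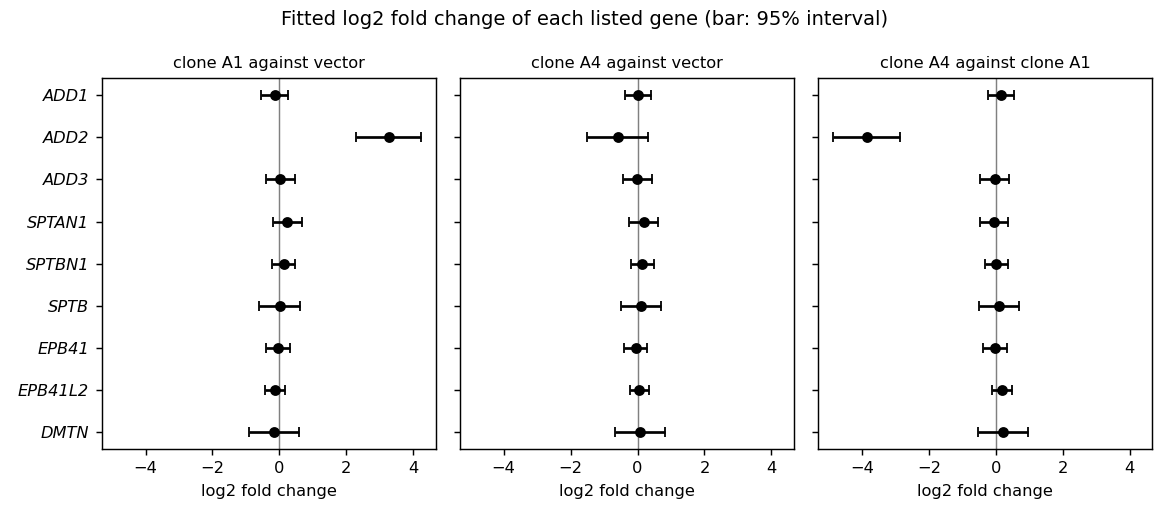
edgeR log2 fold change (horizontal axis) with its 95% interval for each of the 9 genes in 3 contrasts. ADD2 lies at 3.27 and -3.86 in the contrasts that involve clone A1, and the other 8 genes lie between -0.16 and 0.23 with intervals that include 0. The clone A1 level of ADD2 chose the list, so its intervals in those contrasts are a description and no test.

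The order of the genes was compared as CPM per kilobase of merged exons. In the vector libraries SPTBN1 (37.3 ± 4.65, SD, n = 3), EPB41L2 (37.1 ± 1.96) and ADD3 (30.0 ± 6.04) stood at the top. SPTBN1 and EPB41L2 overlapped, and the ADD3 libraries, at 23.2 to 34.5, ended just under the 34.9 to 38.5 of EPB41L2. SPTAN1 (14.1 ± 2.35), ADD1 (8.88 ± 1.08) and EPB41 (5.09 ± 0.742) followed, and then DMTN (1.63 ± 0.499), SPTB (0.664 ± 0.212) and ADD2 (0.283 ± 0.111), and no adjacent genes in this lower part overlapped. In clone A1, ADD2 was at 2.72 ± 0.855 CPM per kilobase, above SPTB at 0.667 ± 0.0744 in every library and between DMTN at 1.46 ± 0.337 and EPB41 at 4.97 ± 0.364. The ADD2 level of clone A1 replicate A, 1.74, equalled the highest DMTN value of that clone to 3 digits. With the length of the longest transcript, EPB41L2 (86.0) came above SPTBN1 (67.4) in the vector libraries.

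**Figure D4:**
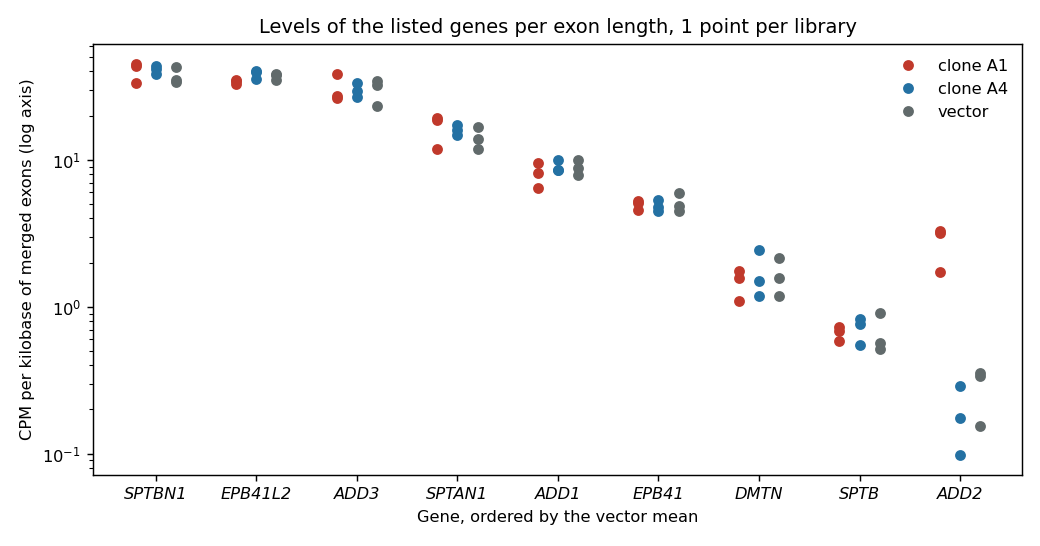
CPM per kilobase of merged exons (log axis) of the 9 genes in each library, ordered by the vector mean and coloured by group. ADD2 is last in the clone A4 and vector libraries and lies above SPTB in clone A1, at a mean of 2.72 against 0.667.

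Ratios between partner genes were compared between the 6 NCBP2 libraries and the 3 vector libraries by an exact two-sided permutation test, for which the smallest p possible is 0.0119. The test shuffled single libraries, although the 6 NCBP2 libraries came from only 2 clones and the vector libraries from 3. Its p therefore takes libraries of the same clone as separate and does not measure the spread between clones. SPTBN1 over SPTAN1, per kilobase, was 2.54 ± 0.191 in the NCBP2 libraries and 2.66 ± 0.249 in vector (exact p = 0.405). ADD3 over ADD1 was 3.67 ± 1.17 and 3.47 ± 1.06 (exact p = 0.905), and EPB41L2 over EPB41 was 7.39 ± 0.770 and 7.39 ± 1.06 (exact p = 0.976). SPTB made up 1.67% ± 0.287 and 1.72% ± 0.324 of the SPTB and SPTBN1 sum (exact p = 0.857). After adjustment over the 4 ratios each exact p was 0.976. Without clone A1 replicate A, an alternative chosen after seeing the data, ADD3 over ADD1 was 3.22 ± 0.416 in the NCBP2 libraries (n = 5), below rather than above vector, with an exact p of 0.679, and the adjusted exact p of each ratio was 0.929.

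A wider list of 49 membrane-skeleton genes held other spectrins, ankyrins, further relatives of EPB41, actin with its capping and pointed-end proteins, membrane anchors, and kinases, proteases and calmodulins that act on adducin or spectrin. Of these, 42 were tested, and edgeR called 0 in each of the 4 contrasts. At an unadjusted p under 0.05 it gave 5 higher and 1 lower in clone A1 against vector, 0 and 1 in clone A4 against vector, 0 and 4 in clone A4 against clone A1, and 1 and 2 in the NCBP2 arm. Over all genes, in either direction, 7.51%, 5.25%, 6.63% and 5.71% had such a p in these contrasts. The median log2 fold change was -0.04 in clone A1 against vector, beside -0.02 over all genes, and 0.02 in clone A4 against vector, beside 0.03. DESeq2 called 1 gene in clone A1 against vector, beside 274 of all 21682 genes, and 0 in the other contrasts.

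That gene was ANK2, the most abundant ankyrin of the list by CPM, which encodes an adaptor between spectrin and membrane channels. It was at 15.6 to 16.6 CPM in clone A1, 19.7 to 21.7 CPM in clone A4 and 20.5 to 35.7 CPM in vector. In clone A1 against vector its log2 fold change was -0.86 (SE 0.224), and the adjusted p was 0.277 in edgeR's test and 0.0359 in that of DESeq2.

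CALM2, one of the genes for calmodulin, which binds adducin and spectrin, was the most abundant gene of its role by CPM, at 1331 to 1688 CPM in clone A1 and 864 to 1165 CPM in vector, and its log2 difference was 0.57 (SE 0.181, adjusted p = 0.397 by edgeR). ACTB, EPB41L5 and the glucose transporter gene SLC2A1 were the most abundant genes of 3 further roles by CPM, without regard to length. Their log2 fold changes were -0.05, 0.23 and 0.10 in clone A1 against vector, with adjusted p-values of 0.980, 0.814 and 0.945 by edgeR. The red cell membrane partners RHAG and EPB42 had 0 counts in all 9 libraries.

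Markers of other cells were read because ADD2 is known from red cells and brain. The 10 erythroid markers summed to at most 0.106 CPM in clone A1, 0.168 CPM in clone A4 and 0.171 CPM in vector, and HBB, HBA1, HBA2, HBG1, ALAS2 and KLF1 had 0 counts in all libraries. The 6 neuronal markers, mostly MAP2, summed to 38.8 to 81.8 CPM in clone A1, 73.0 to 92.1 CPM in clone A4 and 93.4 to 101 CPM in vector. No library of either clone reached the vector range. Among all genes tested, in either direction, 14.2% had no overlap with vector in clone A1, 12.1% in clone A4 and 3.74% in the NCBP2 arm.

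The sum of the 5 epithelial markers also lay lower in clone A1 (4.72 to 6.21 CPM) than in vector (8.27 to 10.8 CPM). So did the sum of the 7 osteoblast and mesenchymal markers (4129 to 5291 against 5735 to 7050 CPM). The clone A4 sums, at 6.40 to 9.29 CPM and 5042 to 6060 CPM, overlapped vector. Of all genes tested, 14.2% had no overlap between clone A1 and vector, in either direction. These sums weigh abundant markers most. The 4 leukocyte markers summed to at most 2.01 CPM in any library. edgeR called 0 of the 17 markers tested in each contrast. At an unadjusted p under 0.05 there were 8 in clone A1 against vector, 4 in clone A4 against vector, 2 in clone A4 against clone A1 and 5 in the NCBP2 arm, beside 7.51%, 5.25%, 6.63% and 5.71% of all genes. DESeq2 called 1 in clone A1 against vector, the keratin gene KRT5, and 1 in clone A4 and in the arm, the synaptic gene SNAP25. Over all 21682 genes it called 274 in clone A1 against vector, 185 in clone A4 against vector and 108 in the arm. The part of these markers in the ADD2 level was not tested.

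The genes around ADD2 were compared to see how far its level was shared by the region. Within 1 Mb of the gene, 60 genes are annotated and 28 were tested. edgeR called 0 of the 28 in each contrast, and DESeq2 called 0. At an unadjusted p under 0.05 there were 7 in clone A1 against vector (7.51% of all genes), 1 in clone A4 against vector (5.25%), 1 in clone A4 against clone A1 (6.63%) and 6 in the NCBP2 arm (5.71%). In clone A1 against vector 19 were above 0 and 9 below, with a median log2 fold change of 0.18 beside -0.02 over all genes and a range of -0.99 to 1.72. In clone A4 against vector, where ADD2 was not high, 23 were above 0 and 5 below, with a median of 0.26 beside 0.03. The highest neighbour, at 1.72 (SE 1.34), was below the 3.27 of ADD2. It was the noncoding gene ENSG00000272735, at a mean of only 0.385 CPM. On the side of the ADD2 start, the low genes CLEC4F (mean 0.343 CPM) and CD207 (mean 0.556 CPM) were at -0.55 (SE 1.30) and -0.99 (SE 0.845). The nearest tested flanking gene on one side was TGFA, which encodes a growth factor and was picked after values were seen, with a log2 fold change of -0.57 (SE 0.260, adjusted p = 0.665) in clone A1 against vector and 0.06 (adjusted p = 1.0) in clone A4 against vector by edgeR.

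**Figure D5:**
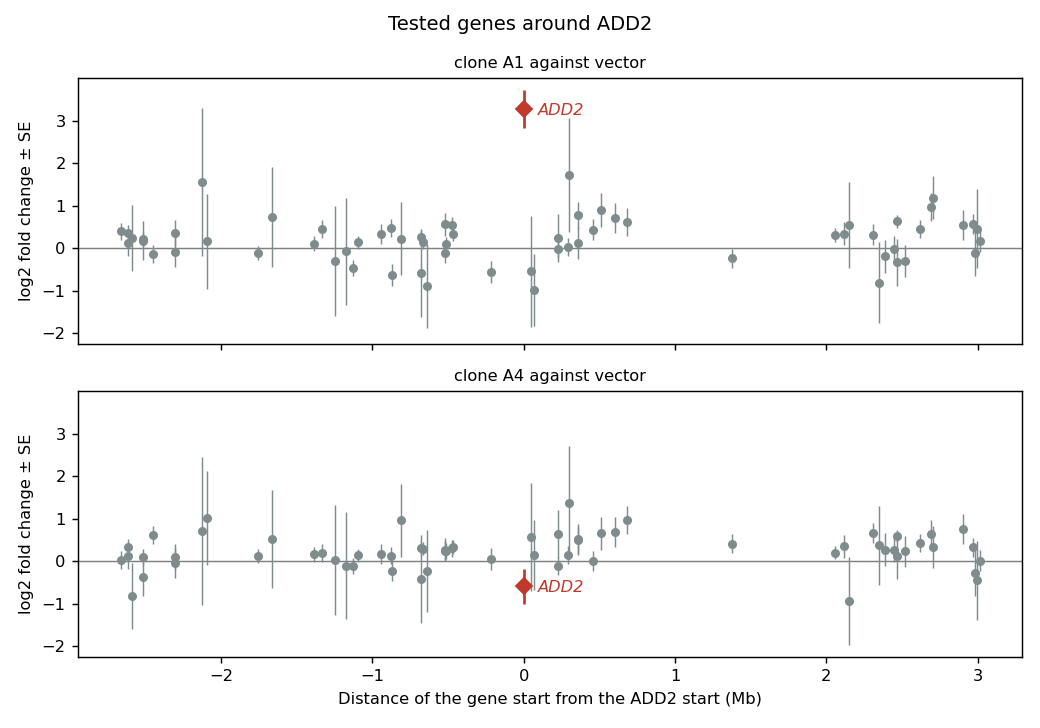
edgeR log2 fold change with its SE (vertical axis) for ADD2 and the 64 tested genes within 3 Mb of it, against the distance of each gene start from the ADD2 start in Mb. In clone A1 against vector ADD2 stands at 3.27 above every neighbour, of which the highest is at 1.72 (SE 1.34, mean 0.385 CPM). In clone A4 against vector ADD2 stands at -0.60.

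The protein-coding genes with a pattern most like ADD2 were named by Pearson's r of log2 CPM over the 9 libraries, among 12121 genes. They were HCN4, which encodes a pacemaker ion channel (r = 0.98), TMEM62 (0.97), PASK, a protein kinase gene (0.97), GPRC5B, which encodes an orphan receptor (0.96), and ECPAS, which encodes a proteasome adaptor (0.96). HCN4 was at 7.92 to 8.46 CPM in clone A1, 3.21 to 3.58 CPM in clone A4 and 3.31 to 4.61 CPM in vector. ECPAS was at 185 to 199 CPM, 134 to 160 CPM and 148 to 158 CPM. Their clone A1 libraries, like those of ADD2, lay above all others, but by far less. Picking genes by their r with ADD2 favours such a pattern, so it is a description and no separate result.

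In all, 27 genes had an r of at least 0.9, and the likeness rests on 3 high libraries from 1 clone against 6 low ones. Without clone A1 replicate A, 4 of the 5 genes stayed among the top 5, and by Spearman's rho 2 of them did. Among the other 8 listed genes, r with ADD2 ran from -0.63 for EPB41L2 to 0.31 for SPTAN1, and without clone A1 replicate A from -0.56 for EPB41L2 to 0.64 for SPTAN1 and 0.62 for SPTBN1.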

How the data were processed

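The authors deposited unnormalized read counts per gene for each of the 9 libraries. Per the submitters' processing notes STAR 2.7.1a and GRCh38 were used. The annotation used for counting is not given in the sources used here, and the labels name polyA RNA as the molecule although their protocol names ribodepletion. Column 3, which held most stranded counts, was read as the strand of the gene (5.51% to 6.42% of stranded counts lay on the other). The 4 lines that name no gene held 44.5% to 63.6% of reads and were left out.

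Genes were matched to GENCODE release 44 by identifier (60295 of 60609). Counts were tested with edgeR 4.0.16 (R 4.3.3; filterByExpr, TMM, robust quasi-likelihood test), with Benjamini-Hochberg adjusted p under 0.05 over all genes as the threshold. One fit of 3 groups gave the clone contrasts, and one of 2 groups the NCBP2 arm. CPM used TMM-scaled library sizes, and log2 CPM a prior count of 2. The common biological coefficient of variation was 0.411, far above counting error. The test was run on simulated counts drawn independently for each library. That run does not cover libraries that share a clone, and its outcome is not given here.

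The members and lists were chosen with earlier results of these data known. The text names all 9 listed genes, wider-list and neighbouring genes past the threshold, the most abundant wider-list gene of each role (1 is not reported here), and the 5 protein-coding genes most like ADD2 by Pearson's r (mean log2 CPM of at least 0); others were picked after their values were seen. Alternatives were DESeq2 1.42.0, its size factors, no filter, unstranded counts, fewer libraries, a replicate block, transcript length, a 3 Mb window and Spearman's rho.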

Additional observations from a re-analysis of the deposited data

Results flagged for a closer look

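The ratio of ADD3 to ADD1 in CPM per kilobase was 5.94 in clone A1 replicate A, against 2.86 to 3.92 in the other 5 NCBP2 libraries. The gap to its nearest neighbour was 0.658 of the whole range, above Dixon's critical value of 0.625 for 6 samples. In that library ADD3 was at 249.6 CPM and ADD1 at 85.0 CPM, the highest and the lowest value of the 9 libraries. The same library stands apart over all genes, and its part in the ratio was not tested. In all, 13 such sets of 6 libraries were looked at, and chance sets apart about 1 in 20.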

How the results depend on the processing

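ADD2 kept its sign in every alternative, with a log2 fold change of 2.97 to 3.51 in clone A1 against vector, -1.08 to -0.30 in clone A4 against vector, -4.34 to -3.56 in clone A4 against clone A1 and 1.95 to 2.61 for the NCBP2 arm. Its clone A1 level chose the list, and its lowest clone A1 library was 4.91-fold above the highest other. The kept sign in contrasts with clone A1 is thus a description and no support. None of the other 8 genes was called in any alternative (lowest adjusted p 0.711), although their small log2 fold changes changed sign in 14 of 120, 19 of 120, 12 of 120 and 14 of 112 cases. Of the wider list, DESeq2 called 1 gene, ANK2, in clone A1 against vector. Without the filter on low counts edgeR called 1 gene, ROCK2, in clone A1 against vector (log2 fold change 0.74, adjusted p = 0.0497) and 1, again ROCK2, in clone A4 against vector (0.79, adjusted p = 0.0413), and the cause was not tested. With the filter its values were 0.76 (adjusted p = 0.730) and 0.79 (adjusted p = 1.0). ROCK2 encodes a kinase that phosphorylates adducin.

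The number of all genes called, 14, 25, 35 and 4 in the 4 contrasts, was 274, 185, 246 and 108 with DESeq2 and 312, 163, 231 and 20 with no filter, so the background shares depend on the tool. Leaving out 1 library gave 3 to 14, 7 to 41, 10 to 56 and 1 to 8. The replicate letters were not taken to pair the libraries, which would need a correlation of deviations over 0.1 in all 9 same-letter pairs. It was over 0.1 in 6 of them (-0.10 to 0.18 over the 9), and 8 of 18 best matches had the same letter. With a replicate block 38, 53, 51 and 13 genes were called, 0 of the 8 and 0 of the wider list among them, and the ADD2 log2 fold change was 3.30 in clone A1 against vector and -0.62 (SE 0.247, against 0.421 without the block) in clone A4 against vector. With only the 2 groups compared, 7 genes were called in clone A1 against vector. Levels per kilobase were higher with the longest transcript as the length, at 0.386 for ADD2 and 86.0 for EPB41L2. In the 3 Mb window the median log2 fold change around ADD2 was 0.21 in clone A1 against vector.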
